A study of Mus musculus with 2 samples.

Results

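The genes described here are 10 genes of the circadian clock and its direct output: Arntl, Clock, Per1, Per2, Per3, Nr1d1, Nr1d2, Dbp, Tef and Hlf. They were listed by name with earlier results of these libraries in view, all 10 were present in both count tables, and they are 10 of the 21745 genes that both tables list. The difference of Hlf between MI and sham fibroblasts was one of those results, so the ratios given here describe the genes and are no independent test of them. Their levels were followed in fibroblasts, endothelial cells, macrophages and mural cells (pericytes and smooth muscle of vessel walls), each picked by marker genes. Drop-seq, which labels every captured mRNA by its cell and by a molecule tag (unique molecular identifier, UMI), had been run on hearts of male wild-type C57BL6/J mice aged 8 to 10 weeks. The library labelled MI came from 1 heart taken 14 days after the left anterior descending coronary artery was tied off (myocardial infarction). The library labelled sham pooled 4 hearts taken 14 days after the same operation without tightening the suture. Each group was thus 1 library, so no difference below has a replicate check and no p-value was computed. The intervals in parentheses are 95% intervals that cover counting error only, not variation between animals or preparations. The labels do not give the time of day at which either library was collected. Clock transcripts cycle over the day, so a difference in circadian time and a difference due to infarction cannot be told apart for any value given here.

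The mammalian clock is a feedback loop of transcription factors that runs in nearly every cell. The proteins of Arntl (BMAL1) and Clock pair on E-box sequences and activate the Per and Cry genes, whose products return to repress the pair, and the nuclear receptors of Nr1d1 and Nr1d2 (REV-ERB alpha and beta) in turn repress Arntl. Dbp, Tef and Hlf encode the PAR basic leucine zipper factors, which bind D-box sequences and carry the rhythm to output genes such as those of detoxification. In peripheral tissues, the heart included, the mRNAs of Dbp, Nr1d1 and the Per genes peak at a phase roughly opposite to that of Arntl.

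A cell was counted as a fibroblast, endothelial cell or macrophage when at least 6 of the markers of that type alone were detected, and as mural with at least 5. This gave 2818 fibroblasts in MI and 1724 in sham, 249 and 1565 endothelial cells, 3519 and 1399 macrophages, and 121 and 66 mural cells. All 14 fibroblast, 14 endothelial, 13 measured macrophage and 14 mural markers had UMIs in their own cell type in both libraries. The MI cells held more UMIs per cell, with medians of 5133.5 against 1529.5 in fibroblasts, 2968 against 1555 in endothelial cells, 1746 against 1374 in macrophages and 7570 against 1045.5 in mural cells. The gates matched the clusters least well in MI mural cells, of which 77 of 121 (63.6%) lay in the mural cluster of an unsupervised clustering, against at least 98.4% of every other gated group. Their fibroblast markers summed to 17865 CPM (the usual scale that divides UMIs by all UMIs of the pool), against 2206 CPM in sham mural cells. Fibroblast markers, summed over the list, were also higher in MI than in sham in endothelial cells (2717 against 632 CPM), macrophages (2020 against 333 CPM) and lymphocytes (3226 against 300 CPM, 210 and 56 cells), and their part in the results was not tested. Only 5 cell barcodes occurred in both libraries.

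Of the 4 cell types, fibroblasts had the most clock genes past 2-fold, with 7 of 10 at least 2-fold lower in MI and 0 higher. Hlf stood at 2.20 CPM in MI against 254 CPM in sham, Per2 and Per3 were about 10.1-fold and 10.4-fold lower in MI, and Arntl, Per1 and Nr1d1 differed by less than counting error. In macrophages 4 of the 9 clock genes with at least 20 UMIs over both libraries were at least 2-fold lower and 1, Nr1d1, was higher. In endothelial cells 2 of 9 (Hlf and Per2) were lower and 1 (Arntl) higher, and in mural cells 1 of 3, Hlf, was lower. These counts have to be read against all genes with as many UMIs. Among all such genes, 20.6% were at least 2-fold lower and 12.9% higher in fibroblasts, 15.8% and 9.01% in endothelial cells, 12.2% and 8.91% in macrophages, and 21.5% and 15.9% in mural cells. The median log2 ratio of MI over sham over the clock genes was -2.19 in fibroblasts, -0.47 in endothelial cells, -0.61 in macrophages and 0.07 in mural cells. The medians over all genes were -0.23, -0.09, -0.11 and -0.12. The endothelial and mural counts, 1 or 2 genes, are near what the background share gives for lists of that length. Levels were scaled to all UMIs of the cell type, and scaling by the median ratio over genes would add 0.32 to every fibroblast log2 ratio, 0.15 to every macrophage one, 0.37 to every mural one and -0.06 to every endothelial one.

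**Figure D1:**
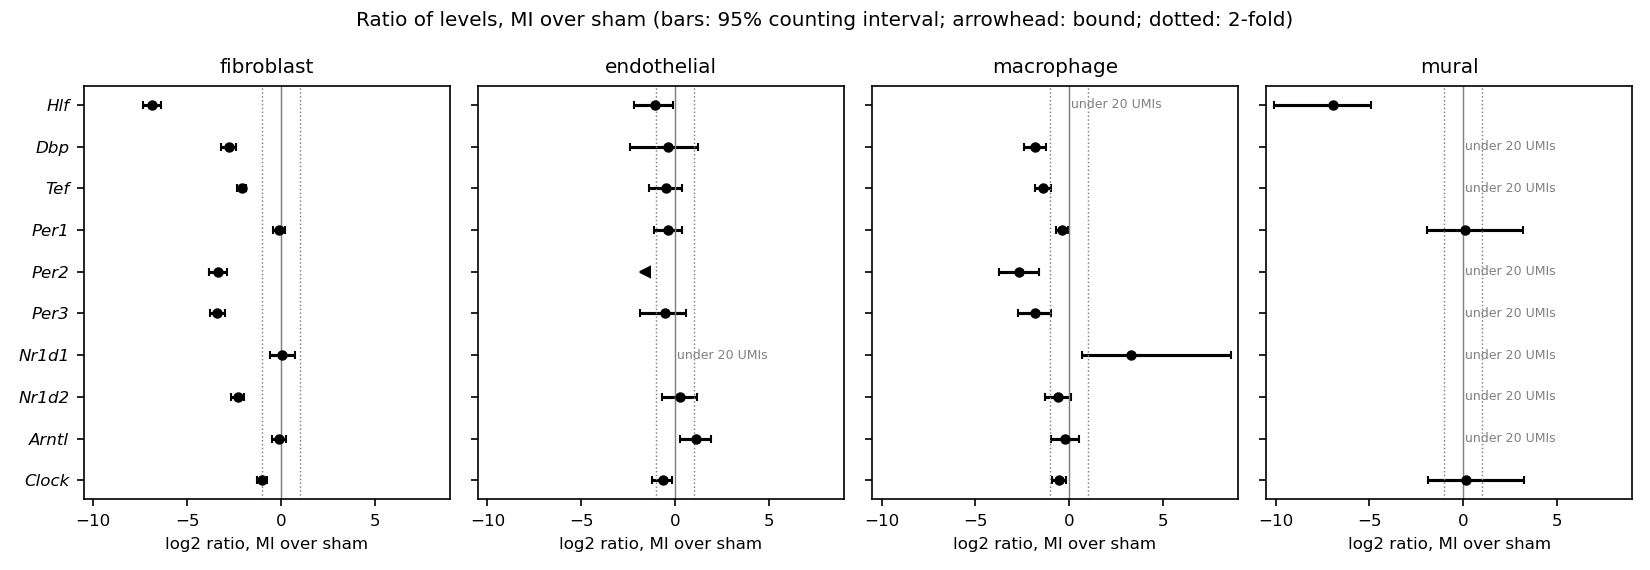
Log2 ratio of MI over sham (horizontal axis) for each of the 10 clock genes (rows) in the 4 cell types (panels), 1 library per group. Points are ratios of levels in CPM, bars are 95% counting intervals, the arrowhead is a bound for a gene with 0 UMIs in MI, dotted lines mark 2-fold, and genes under 20 UMIs over both libraries carry no point. In fibroblasts 7 points lie at or left of the 2-fold line, with Hlf at -6.85, while Per1, Nr1d1 and Arntl lie near 0.

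Of the activators, Arntl (chromosome 7, 113207465 to 113314126, plus strand) encodes BMAL1, without which the clock does not run. In fibroblasts it stood at 22.0 CPM (19.8 to 24.4, 371 UMIs) in MI against 23.6 CPM (18.4 to 29.8, 70 UMIs) in sham, with a log2 ratio of -0.10 (-0.47 to 0.29). Macrophages held 8.61 CPM (6.58 to 11.1) in MI against 10.1 CPM (6.36 to 15.4) in sham, with a log2 ratio of -0.24 (-0.96 to 0.54). The libraries thus overlapped within counting error in both of these cell types, and the intervals still allow a difference in either direction. Endothelial cells were the exception, with 22.3 CPM (14.0 to 33.7, 22 UMIs) in MI against 10.2 CPM (7.04 to 14.4, 33 UMIs) in sham, with a log2 ratio of 1.12 (0.28 to 1.95). That difference depended on which cells were counted, and was 0.07 when the gate was set on cells thinned to 500 UMIs each. Mural cells held 9 UMIs in MI and 1 in sham. By level, the order ran from sham fibroblasts through MI endothelial cells to MI fibroblasts and down to MI macrophages at the lowest level, with every interval overlapping the next.

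Clock (chromosome 5, 76209868 to 76304792, minus strand) encodes the partner of BMAL1 in the activating pair. Its level was lower in MI in 3 cell types, and in fibroblasts it was 25.002 CPM (22.7 to 27.5, 421 UMIs) against 50.9 CPM (43.1 to 59.7, 151 UMIs), a log2 ratio of -1.03 (-1.30 to -0.75). That value sits at the edge of the 2-fold rule and was -0.71 with median-ratio scaling. Endothelial cells stood at 38.5 CPM (27.2 to 52.8) in MI against 60.7 CPM (52.5 to 69.8) in sham, with a log2 ratio of -0.66 (-1.20 to -0.15). Macrophages stood at 27.7 CPM (23.9 to 31.8) and 40.1 CPM (32.1 to 49.5), for a log2 ratio of -0.54 (-0.91 to -0.16). The 3 sham levels were the highest of the 8 pools of cell type and library, each overlapping the next in counting interval. In mural cells the values were 26.7 CPM (17.6 to 38.9) and 24.5 CPM (2.97 to 88.5), the latter from 2 UMIs.

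The Per genes encode the repressors that enter the nucleus with the cryptochromes and shut off the activating pair. Per1 (chromosome 11, 69095217 to 69109960, plus strand), which also responds quickly to hormones and cyclic AMP, was nearly level between the libraries in fibroblasts. Fibroblasts stood at 27.3 CPM (24.9 to 29.9, 460 UMIs) in MI against 29.3 CPM (23.5 to 36.2, 87 UMIs) in sham, with a log2 ratio of -0.10 (-0.44 to 0.24). Endothelial cells stood at 20.2 CPM (12.4 to 31.3) and 26.0 CPM (20.8 to 32.2), for a log2 ratio of -0.36 (-1.14 to 0.36). Mural cells stood at 25.7 CPM (16.8 to 37.7) and 24.5 CPM (2.97 to 88.5), the latter from 2 UMIs. Both pairs overlap, but the mural log2 ratio of 0.07 (-1.93 to 3.19) allows a large difference in either direction. Macrophages had the highest Per1 of the 4 cell types in each library, with intervals above those of every other pool but the sham mural one, at 43.9 CPM (39.1 to 49.0, 311 UMIs) in MI against 57.2 CPM (47.6 to 68.2, 124 UMIs) in sham. Their log2 ratio was -0.38 (-0.69 to -0.07), and -0.23 with median-ratio scaling.

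Per2 (chromosome 1, 91415982 to 91459324, minus strand), which mice need for stable rhythms, was lower in MI in the 3 cell types with at least 20 UMIs. Fibroblasts held 3.39 CPM (2.56 to 4.39, 57 UMIs) in MI against 34.1 CPM (27.7 to 41.4, 101 UMIs) in sham, with a log2 ratio of -3.33 (-3.83 to -2.85). Macrophages held 1.83 CPM (0.977 to 3.14, 13 UMIs) and 11.5 CPM (7.46 to 17.0, 25 UMIs), for a log2 ratio of -2.65 (-3.74 to -1.63). In endothelial cells 0 UMIs were found in MI and 30 in sham, where the level was 9.29 CPM (6.27 to 13.3). Set against a floor of 3 counts over the MI pool, which is 3.04 CPM, MI was at least 3.06-fold lower, a log2 ratio of -1.61 or less. Mural cells gave 5 UMIs in MI and 1 in sham, too few to compare. Sham fibroblasts had the highest level of the 8 pools. Every interval in that order overlapped the next one, the sham mural pool with its single UMI included.

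Per3 (chromosome 4, 151003652 to 151044665, minus strand), the Per gene whose loss has the mildest effect on the clock, followed the same order of libraries. Its fibroblast level was 4.81 CPM (3.82 to 5.98, 81 UMIs) in MI against 50.3 CPM (42.5 to 59.0, 149 UMIs) in sham, with a log2 ratio of -3.39 (-3.79 to -2.98). In macrophages it was 3.25 CPM (2.06 to 4.87, 23 UMIs) and 11.5 CPM (7.46 to 17.0, 25 UMIs), for a log2 ratio of -1.83 (-2.71 to -0.95). Endothelial cells did not separate, with 8.10 CPM (3.50 to 16.0, 8 UMIs) in MI against 11.8 CPM (8.33 to 16.2, 38 UMIs) in sham, with a log2 ratio of -0.54 (-1.85 to 0.58), which was 0.65 with the gate on thinned cells. Mural cells held 4 UMIs in MI and 1 in sham. Sham fibroblasts were again the highest pool, and MI macrophages the lowest, with every interval overlapping the next in that order. Within the Per family of fibroblasts, Per2 and Per3 thus differed between the libraries by intervals that do not touch that of Per1.

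The nuclear receptor genes also parted. Nr1d2 (chromosome 14, 18204054 to 18239127, minus strand) encodes REV-ERB beta, a heme-binding repressor of Arntl. Fibroblasts stood at 8.73 CPM (7.38 to 10.3, 147 UMIs) in MI against 42.8 CPM (35.7 to 51.0, 127 UMIs) in sham, with a log2 ratio of -2.29 (-2.65 to -1.94). Macrophages stood at 8.75 CPM (6.71 to 11.2) and 13.4 CPM (8.96 to 19.2), with a log2 ratio of -0.61 (-1.27 to 0.08) whose interval reaches 0. Endothelial cells stood at 15.2 CPM (8.50 to 25.05) and 12.4 CPM (8.85 to 16.9), for a log2 ratio of 0.29 (-0.67 to 1.18). Sham fibroblasts were the only pool whose interval lay apart from that of the next pool in order, and the other 7 overlapped in turn. Mural cells held 7 UMIs in MI and 1 in sham.

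Nr1d1 (chromosome 11, 98767932 to 98775333, minus strand) encodes REV-ERB alpha, whose mRNA in most tissues cycles steeply. Fibroblasts held 7.72 CPM (6.45 to 9.17, 130 UMIs) in MI against 7.42 CPM (4.65 to 11.2, 22 UMIs) in sham, with a log2 ratio of 0.06 (-0.60 to 0.78). Macrophages held 4.52 CPM (3.09 to 6.38, 32 UMIs) in MI against 0.461 CPM (0.0117 to 2.57) in sham, where a single UMI was counted, a log2 ratio of 3.29 (0.71 to 8.64). The size of that ratio is poorly fixed by 1 UMI, and was 2.34 with cell types taken from clusters, 2.35 with doublets kept and 1.66 with a stricter mitochondrial limit of 10%. Endothelial cells held 9 UMIs in MI and 8 in sham, 9.11 CPM (4.17 to 17.3) and 2.48 CPM (1.07 to 4.88), which is under the minimum of 20 UMIs. Mural cells held 4 UMIs in MI and 0 in sham, and every interval overlapped the next in the order of the 8 pools. Nr1d1 was the gene with the fewest UMIs in sham fibroblasts, so a moderate difference there was not detectable at this depth.

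Among the outputs, Dbp (chromosome 7, 45705088 to 45710203, plus strand) is the D-box factor whose liver mRNA is among the most rhythmic known. Fibroblasts stood at 5.76 CPM (4.67 to 7.03, 97 UMIs) in MI against 39.5 CPM (32.6 to 47.3, 117 UMIs) in sham, with a log2 ratio of -2.78 (-3.18 to -2.38). Macrophages stood at 6.63 CPM (4.87 to 8.82, 47 UMIs) and 23.5 CPM (17.5 to 30.9, 51 UMIs), for a log2 ratio of -1.83 (-2.43 to -1.23). In MI these cell types overlapped, while the endothelial levels, 4.05 CPM (1.10 to 10.4, 4 UMIs) in MI against 5.27 CPM (3.07 to 8.43, 17 UMIs) in sham, were low in both libraries with a log2 ratio of -0.38 (-2.41 to 1.24). Mural cells held 0 UMIs in MI and 2 in sham. The interval of sham macrophages lay apart from that of MI macrophages, the next pool in order, and all lower pools overlapped in turn.

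Tef (chromosome 15, 81802421 to 81826863, plus strand) encodes thyrotroph embryonic factor, a PAR factor named for its role in the pituitary. In fibroblasts it was at 19.4 CPM (17.3 to 21.6, 326 UMIs) in MI against 82.6 CPM (72.6 to 93.7, 245 UMIs) in sham, with a log2 ratio of -2.09 (-2.34 to -1.85). In macrophages it was at 14.5 CPM (11.9 to 17.6, 103 UMIs) and 38.3 CPM (30.5 to 47.5, 83 UMIs), for a log2 ratio of -1.40 (-1.83 to -0.96). The endothelial pools overlapped, at 15.2 CPM (8.50 to 25.05) and 21.1 CPM (16.4 to 26.7), for a log2 ratio of -0.47 (-1.39 to 0.35). The sham fibroblast and sham macrophage intervals each lay apart from that of the next pool in order. All pools below them, from sham endothelial cells to MI mural cells with 12 UMIs, overlapped in turn.

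Hlf (chromosome 11, 90336536 to 90390895, minus strand) encodes hepatic leukemia factor, the third PAR factor. It had the widest range of the 10 genes. Fibroblasts stood at 2.20 CPM (1.55 to 3.03, 37 UMIs in 2818 cells) in MI against 254 CPM (236 to 272, 752 UMIs in 1724 cells) in sham, with a log2 ratio of -6.85 (-7.37 to -6.37), or 115-fold. With the gate set on thinned cells the ratio was -6.07, and as a mean over cells -6.28. Mural cells stood at 1.98 CPM (0.240 to 7.15, 2 UMIs) in MI against 245 CPM (150 to 379, 20 UMIs) in sham, with a log2 ratio of -6.95 (-10.09 to -4.91), which was -4.63 with mural cells taken from clusters and -5.34 with sham cells that also carried endothelial markers added. With the gate on thinned cells only 5 MI mural cells were left, too few to measure the difference. Sham fibroblasts and sham mural cells overlapped each other and lay apart from all other pools. Endothelial cells came next, at 10.1 CPM (4.86 to 18.6, 10 UMIs) in MI against 21.1 CPM (16.4 to 26.7, 68 UMIs) in sham, with a log2 ratio of -1.06 (-2.18 to -0.09), and this direction turned with the choice of cells, as given below. MI fibroblasts, MI mural cells, sham macrophages and MI macrophages followed in that order, each interval overlapping the next, and that of MI mural cells also overlapped MI endothelial cells. Macrophages held the least, with 3 UMIs in MI and 4 in sham, and lymphocytes held 0 in both libraries.

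**Figure D2:**
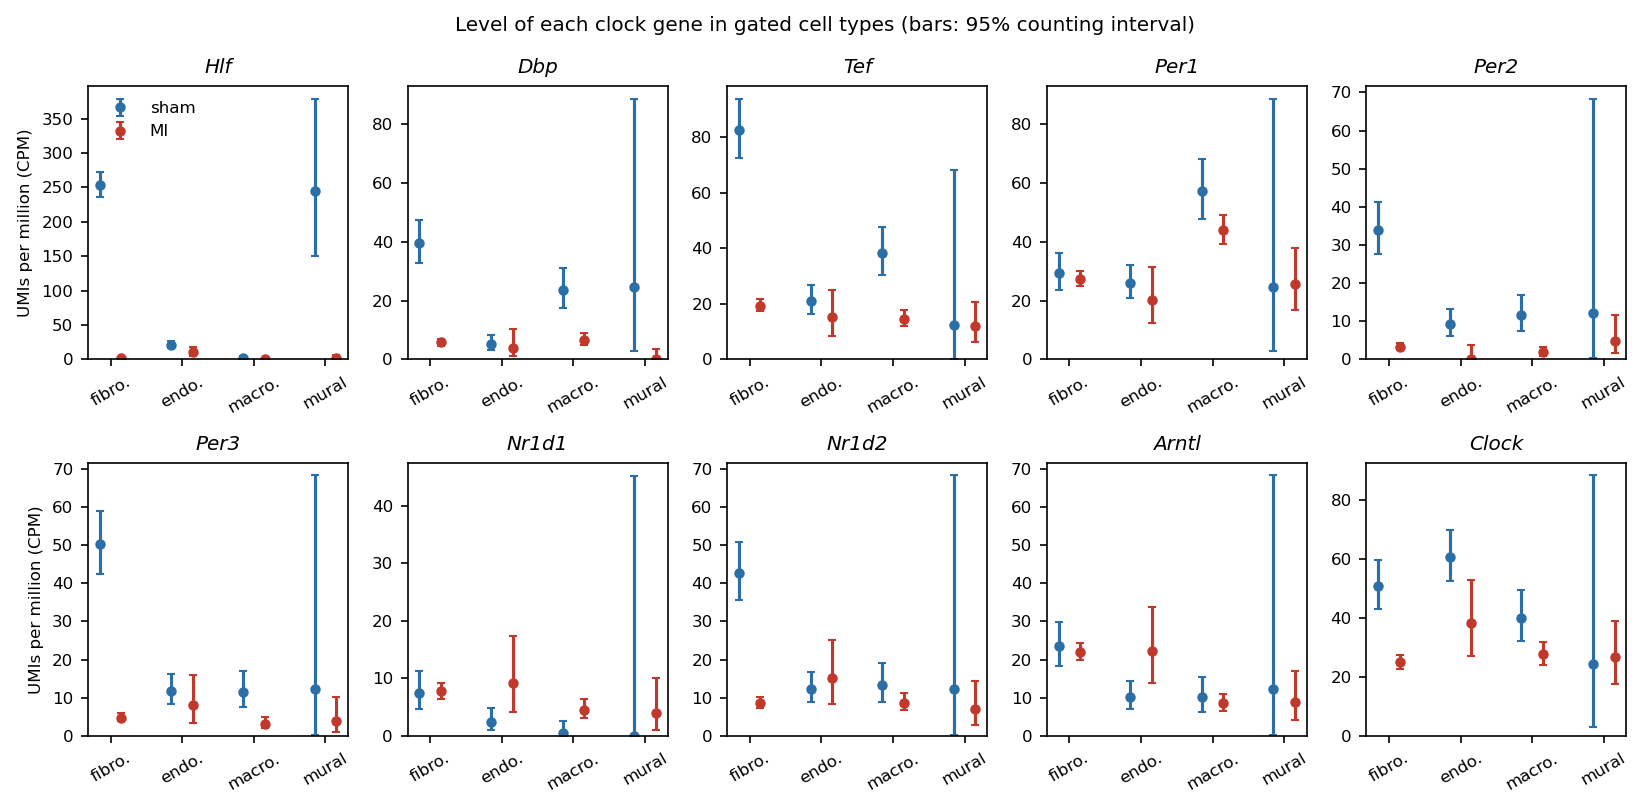
Level of each of the 10 clock genes (panels, each with its own vertical axis in CPM, starting at 0) in fibroblasts, endothelial cells, macrophages and mural cells, for sham (blue) and MI (red), 1 library each. Points are levels in CPM and bars are 95% counting intervals. For 7 genes the sham fibroblast point stands at least 2-fold above the MI one. Hlf also stands at 245 CPM in sham mural cells, and the sham mural bars are wide because that pool held 81595 UMIs.

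The start regions of these genes show where the loop's own sequence elements sit, and 4 of them are given because they carry a perfect match to an element bound within the clock or by a signal that resets it. RefSeq windows of the 250 bases before an annotated start (build GRCm38.p6) were available for 9 of the 10 genes, all but Per2. Both strands were searched for the E-box CACGTG, the D-box TTATGTAA or TTACGTAA, the REV-ERB and ROR element TAGGTCA or TGGGTCA, and the cyclic AMP element TGACGTCA. Per1 and Tef held an E-box, Per3 held 2 D-boxes and Hlf held a cyclic AMP element, while 0 of the 9 held the REV-ERB and ROR letters. Of all 32851 windows, 6.02% held the E-box, 0.931% the D-box, 5.38% the REV-ERB and ROR element and 1.55% the cyclic AMP element. These shares are per window, while the matches above are per gene. A gene could have more than 1 window, and the 9 genes had 14 windows. Tef held the E-box in each of its windows, of which 1 is given. The sequences run 5′ to 3′ on the gene's strand up to the base before the start, with the matching letters in capitals. They lie at chr11:69098699-69098948 (plus strand, Per1), chr4:151044666-151044915 (minus strand, Per3), chr15:81811164-81811413 (plus strand, Tef) and chr11:90390918-90391167 (minus strand, Hlf).
Per1: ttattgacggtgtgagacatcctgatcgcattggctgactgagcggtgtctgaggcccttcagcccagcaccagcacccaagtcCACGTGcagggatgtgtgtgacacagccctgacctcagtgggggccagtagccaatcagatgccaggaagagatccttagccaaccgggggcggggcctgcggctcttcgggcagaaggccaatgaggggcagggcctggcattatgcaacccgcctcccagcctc
Per3: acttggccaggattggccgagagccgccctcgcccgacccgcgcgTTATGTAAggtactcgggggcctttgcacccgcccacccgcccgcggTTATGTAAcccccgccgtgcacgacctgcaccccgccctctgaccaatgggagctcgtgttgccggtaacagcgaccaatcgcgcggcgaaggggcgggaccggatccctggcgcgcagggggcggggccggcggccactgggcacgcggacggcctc
Tef: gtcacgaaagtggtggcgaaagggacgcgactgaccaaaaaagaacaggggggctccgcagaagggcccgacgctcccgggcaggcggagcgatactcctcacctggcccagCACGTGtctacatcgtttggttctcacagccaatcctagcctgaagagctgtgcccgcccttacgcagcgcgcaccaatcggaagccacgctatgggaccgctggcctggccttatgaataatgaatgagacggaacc
Hlf: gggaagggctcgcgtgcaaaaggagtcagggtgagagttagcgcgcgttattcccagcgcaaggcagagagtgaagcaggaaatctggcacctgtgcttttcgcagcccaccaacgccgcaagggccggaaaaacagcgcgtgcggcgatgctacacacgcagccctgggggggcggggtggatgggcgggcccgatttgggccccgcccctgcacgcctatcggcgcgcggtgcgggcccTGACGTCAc
The Per1 E-box spans bases 166 to 161 before the start, and Per1, which holds it, was level in fibroblasts while Tef, which holds one at bases 138 to 133, was lower in MI. The Per3 D-boxes span bases 205 to 198 and 158 to 151, and the Hlf element bases 9 to 2. A match in letters is not a bound site, and the absence of these letters from a window of this length says nothing of elements elsewhere in a gene.

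The share of cells with a UMI gave the same picture as the summed levels for Hlf. After each cell was thinned to 500 UMIs, Hlf was seen in 11.4% (9.91 to 13.0, exact Clopper-Pearson) of sham fibroblasts and 0.248% (0.0999 to 0.511) of MI fibroblasts, against 28.9% and 1.06% unthinned. In sham mural cells it was seen in 10.6% (4.37 to 20.6) of 66 cells, and in 0 of 121 MI mural cells, which allows a share of cells with a UMI of up to 2.48%, taking 3 counts of the total as the limit here and for the other shares of 0 (the exact 95% limit was 3.003%). Macrophages gave 1 cell of 3519 in MI and 0 of 1399 in sham, which allows up to 0.214% (exact limit 0.263%). Lymphocytes, the background for free RNA, gave 0 of 210 cells in MI and 0 of 56 in sham, which allow up to 1.43% and 5.36% (exact limits 1.74% and 6.38%), with median depths of 1253 and 1321.5 UMIs. Free RNA of Hlf was thus not detectable in lymphocytes at this depth, but these pools were too small to show that it was absent. A floor of 3 counts is 9.36 CPM in MI and 35.9 CPM in sham lymphocytes. The first lies above the 2.20 CPM of MI fibroblasts themselves.

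The other clock genes were each seen in few cells. At 500 UMIs per cell Tef was seen in 4.23% of sham and 0.923% of MI fibroblasts, Per3 in 2.49% and 0.142%, Nr1d2 in 2.20% and 0.603%, Per2 in 1.74% and 0.284%, and Dbp in 1.57% and 0.248%. Clock was seen in 2.49% and 1.38%, Per1 in 1.86% and 1.49%, and Nr1d1 in 0.406% and 0.248%. Arntl was seen in 0.696% and 1.31%, the one of the 10 with the higher share in MI at this depth. Its intervals overlapped, at 0.360 to 1.21 in sham and 0.926 to 1.81 in MI, as did those of Clock, Per1 and Nr1d1. Unthinned, the shares of the first 5 were 12.0% and 9.72%, 7.60% and 2.52%, 6.67% and 4.33%, 5.51% and 1.99%, and 6.15% and 3.16%. The unthinned shares of Clock (7.02% and 12.9%), Per1 (4.58% and 14.0%), Nr1d1 (1.10% and 4.01%) and Arntl (3.71% and 11.2%) were instead higher in MI. MI fibroblasts also held more UMIs per cell. At 500 UMIs per cell, any of the 10 genes was seen in 25.5% of sham and 6.64% of MI fibroblasts, 18.2% and 1.65% of mural cells, 9.01% and 5.74% of macrophages, and 8.88% and 7.23% of endothelial cells. Of the sham fibroblasts 383 showed 1 clock gene, 53 showed 2 and 4 showed 3 or more. Among 196 sham fibroblasts with Hlf, Tef was also seen in 5.61%, against 4.06% of the 1528 without it, and among 27 with Dbp, Hlf was seen in 33.3%, against 11.02% of the other 1697. With so few UMIs per cell these pairs say little about whether the genes share cells.

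Hlf was low in each subgroup of MI fibroblasts that was examined. Acta2, the smooth muscle actin of contractile myofibroblasts, was seen after thinning in 1295 of the 2818 MI fibroblasts and in 4 of the 1724 sham fibroblasts. The MI cells with Acta2 held 0.794 CPM of Hlf (0.319 to 1.64, 7 UMIs) and those without it 3.74 CPM (2.52 to 5.34, 30 UMIs), a log2 ratio of -2.23 (-3.67 to -1.02). The cells without Acta2 were still at -6.08 (-6.66 to -5.56) against sham fibroblasts for Hlf, -2.38 (-2.85 to -1.92) for Dbp, -3.01 (-3.61 to -2.43) for Per2 and -3.30 (-3.83 to -2.79) for Per3. The lower Hlf in MI was thus found in both subgroups. A cell with no Acta2 UMI left after thinning may still express Acta2. Acta2 stood at 2113, 1460 and 2792 CPM in the gated MI fibroblast clusters described below, against 6.43 CPM in the sham cluster. The split thus cannot show whether MI fibroblasts that lack Acta2 were also low in Hlf. Dbp and Arntl were also lower in the cells with Acta2 than in those without, with log2 ratios of -0.90 (-1.53 to -0.28) and -0.39 (-0.70 to -0.09), while the intervals of the other 7 genes held 0. Median depth differed between the subgroups, at 5938 UMIs with Acta2 and 4485 without.

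By cluster, Hlf stood at 0.967 CPM (0.482 to 1.73) in the largest MI fibroblast cluster of 1997 gated cells and at 1.04 CPM (0.215 to 3.05) in a cluster of 357 cells with Mki67, a gene of cycling cells, at 935 CPM. A cluster of 395 gated cells with the epicardial gene Wt1 at 140.5 CPM held 7.95 CPM (4.71 to 12.6) of Hlf and 41.1 CPM (33.2 to 50.3) of Per1. Its Hlf and Per1 intervals lay above those of the largest cluster, where Per1 was at 25.4 CPM (22.6 to 28.5). All 3 MI clusters remained far below the main sham fibroblast cluster of 1721 cells, at 254 CPM (236 to 273). For Per2, Per3, Dbp and Nr1d2 the highest of the 3 MI clusters, at 5.30, 5.22, 6.63 and 9.23 CPM, also stood below the sham cluster, at 34.2, 49.8, 39.6 and 43.0 CPM. Because nearly all cells of each cluster came from 1 library, a cluster and a library cannot be told apart here.

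**Figure D3:**
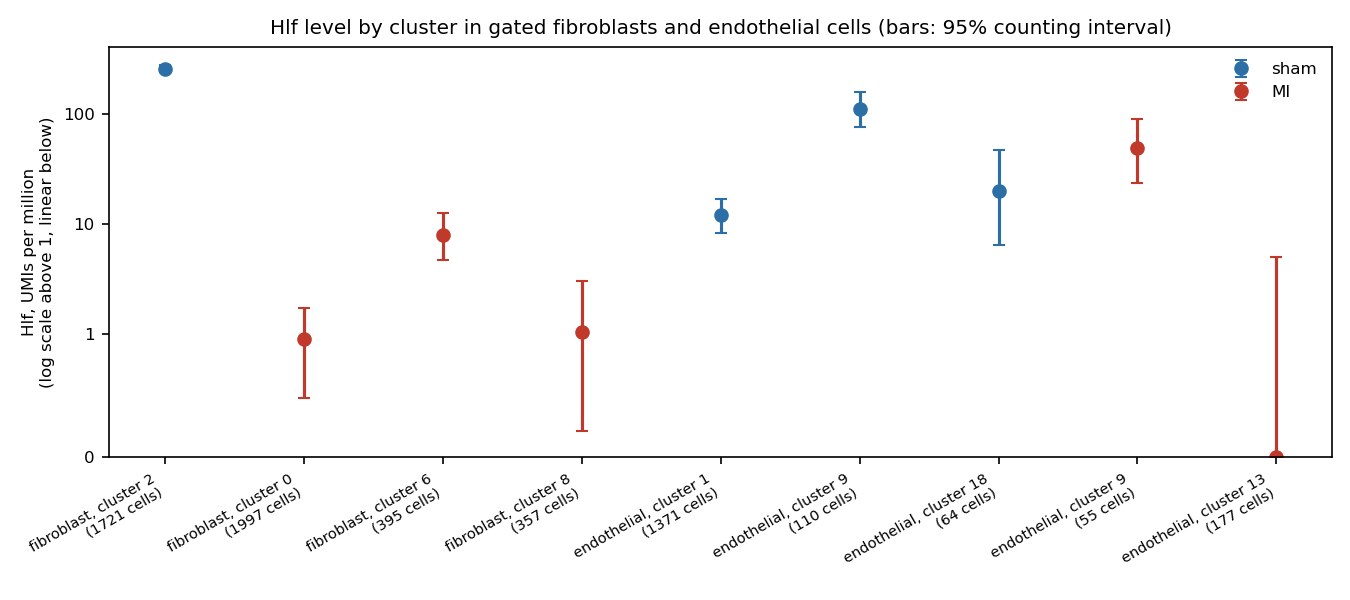
Hlf in CPM (vertical axis, logarithmic above 1 and linear below) by cluster of gated fibroblasts and endothelial cells with at least 50 cells, for sham (blue) and MI (red). Bars are 95% counting intervals and the number of cells stands under each cluster. The MI fibroblast clusters lie between 0.967 and 7.95 CPM against 254 CPM in the sham cluster, and among endothelial cells cluster 9 is the highest in both libraries.

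In endothelial cells Hlf sat in 1 cluster in MI. This cluster, number 9, was singled out after its values were seen, and it carried Npr3, a natriuretic peptide receptor gene of the endocardium, at 820 CPM in gated MI cells and 2921 CPM in gated sham cells. All 10 Hlf UMIs of gated MI endothelial cells lay in its 55 cells, at 48.5 CPM (23.3 to 89.2), and 30 of the 68 sham UMIs lay in its 110 cells, at 111 CPM (74.8 to 158). Without the cluster 0 UMIs were left in 194 MI cells against 38 in 1455 sham cells, at 12.9 CPM (9.09 to 17.6), and the log2 ratio became -1.74 or less against a floor of 3 counts over the MI pool. Over all cells of the cluster, gated or not, Hlf was at 65.9 CPM (52.8 to 81.3) in 229 MI cells and 99.2 CPM (69.1 to 138) in 171 sham cells, a log2 ratio of -0.59 (-1.17 to 0.02). Cluster 9 was 55 of the 249 gated MI endothelial cells and 110 of the 1565 sham ones. The ratio over all endothelial cells was -1.06 in the gate, 0.80 with cell types taken from clusters and 0.08 with the gate set on thinned cells. Arntl kept its direction without the cluster, at 23.0 CPM (13.7 to 36.4) in MI against 10.5 CPM (7.12 to 14.9) in sham, with a log2 ratio of 1.14 (0.21 to 2.02).

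Other genes of the loop, taken from a list of 17 of which 16 were in both tables, were counted in the same way in fibroblasts. Of the 13 with at least 20 UMIs there, 4 were at least 2-fold lower in MI and 1 higher, against 20.6% and 12.9% of all genes counted, with a median log2 ratio of -0.70 against -0.23. Rora, whose receptor activates Arntl at the element that REV-ERB represses, was at 56.2 CPM in MI against 332 CPM in sham fibroblasts, a log2 ratio of -2.56 (-2.69 to -2.43). Btrc, a subunit of the ubiquitin ligase that marks PER proteins for breakdown, was at -1.74 (-2.21 to -1.26). Nfil3, which encodes the repressor that competes with the PAR factors for D-boxes, was higher in MI at 24.6 CPM against 8.43 CPM, a log2 ratio of 1.54 (0.96 to 2.19). Of the rest, the cryptochrome genes Cry1 and Cry2 were at -1.08 (-1.41 to -0.73) and -1.13 (-1.56 to -0.69). Nfil3 thus stood opposite to Hlf, Dbp and Tef in fibroblasts.

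The same list was counted in the other cell types. Of 11 counted members in macrophages 1 was lower and 2 higher, against 12.2% and 8.91% of all genes, with a median of -0.05 against -0.11, and the higher ones were Nfil3 at 40.6 against 6.00 CPM (2.76, 1.96 to 3.69) and Bhlhe40, an E-box repressor, at 13.1 against 3.69 CPM (1.83, 0.79 to 3.08). Btrc was at -1.35 (-2.22 to -0.45) there. Of 10 in endothelial cells 5 were lower and 0 higher, against 15.8% and 9.01%, with a median of -0.83 against -0.09. These included Rora at -1.68 (-2.37 to -1.06), Cry2 at -1.65 (-3.02 to -0.54) and Timeless, which in mammals acts in DNA replication, at -1.98 (-2.47 to -1.54). Of 6 in mural cells 3 were lower and 0 higher, against 21.5% and 15.9%, with a median of -1.53 against -0.12 for all genes. The median rests on the other 5, because Bhlhe40, with 34 UMIs in MI and 0 in sham, stood under the floor of the sham pool and has no ratio. Csnk1e, a kinase of PER proteins, was at -2.28 (-3.09 to -1.40), Cry1 at -1.70 (-3.17 to 0.07) and Rora at -1.53 (-2.13 to -0.88).

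A list of 12 genes known as clock outputs or as rhythmic in many tissues had 7 lower and 1 higher in fibroblasts, against 20.6% and 12.9% of all genes, with a median of -1.28. Lonrf3 was at -3.83 (-4.93 to -2.82), Tsc22d3, the glucocorticoid-induced leucine zipper gene, at -2.33 (-2.43 to -2.23) and Hmgb3, a chromatin protein gene, at 3.33 (2.57 to 4.20). In endothelial cells 2 of 8 were lower and 1 higher, against 15.8% and 9.01% (median -0.16), with Nampt, the enzyme of NAD salvage, at -1.04 (-1.68 to -0.45), the cell cycle inhibitor gene Cdkn1a at -1.01 (-1.29 to -0.75) and Hmgb3 at 2.34 (1.86 to 2.83). In macrophages 1 of 10 was lower and 2 were higher, against 12.2% and 8.91% (median 0.52), with the deubiquitinase gene Usp2 at 1.10 (0.40 to 1.88), Hmgb3 at 1.36 (0.63 to 2.18) and Marveld1 at -2.23 (-2.87 to -1.59). In mural cells 1 of 8 was lower, Tsc22d3 at -1.34 (-2.13 to -0.47), and 1 higher, Hmgb3 at 1.01 or more with 0 UMIs in sham (median 0.16), against 21.5% and 15.9% of all genes, while Cdkn1a was at 0.98 (-0.02 to 2.22).

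Glucocorticoid response genes are given beside the clock genes because stress hormone resets peripheral clocks and induces Per1. This list shares Tsc22d3 and Pdk4 with the clock output list, so the counts of these lists overlap. Of 11 in fibroblasts 6 were lower and 2 higher, against 20.6% and 12.9% of all genes, with a median of -1.60. Besides Tsc22d3, the transcription factor gene Klf9 stood at -2.01 (-2.10 to -1.93) and Errfi1, an inhibitor of the EGF receptor, at -2.44 (-2.60 to -2.28). Fkbp5, the hormone-induced co-chaperone of the glucocorticoid receptor, was at 89.3 CPM in MI against 102 CPM in sham fibroblasts, a log2 ratio of -0.19 (-0.37 to -0.01). It was higher in MI in the other cell types, at 1.99 (1.73 to 2.27) in macrophages and at 2.33 (1.92 to 2.75) in endothelial cells. In mural cells 99 UMIs were counted in MI and 1 in sham. The list as a whole had 1 lower and 4 higher of 10 in macrophages (median -0.06), against 12.2% and 8.91% of all genes. It had 4 and 4 of 10 in endothelial cells (median 0.21), against 15.8% and 9.01%, and 5 and 3 of 9 in mural cells (median -1.34), against 21.5% and 15.9%. Its other leading members were Sgk1, a kinase gene, at 2.75 and the metallothionein gene Mt2 at 1.53 in macrophages, Mt1 at 2.85 and Mt2 at 4.23 in endothelial cells, and Klf9 at -2.47 and Mt2 at 3.70 in mural cells. The Mt2 ratios rested on 4 sham UMIs in endothelial cells (2.68 to 6.22) and on 1 in mural cells (1.20 to 9.01), so their size is poorly fixed.

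Immediate early genes, which respond within minutes to stimuli that include the dissociation of tissue, are the other set whose level can move with handling. Of 14 in fibroblasts 7 were lower and 0 higher, against 20.6% and 12.9% of all genes, with a median of -0.94, led by Klf4 at -2.28, Nr4a1 at -2.25 and Jund at -1.88. Endothelial cells had 6 lower and 1 higher, against 15.8% and 9.01% (median -0.71), led by Klf2 at -1.78, Egr1 at -1.76 and Klf4 at -1.70. Macrophages had 4 lower and 1 higher, against 12.2% and 8.91% (median -0.25), led by Klf2 at -3.87, Egr1 at -2.41 and Jund at -1.56. Mural cells had 3 lower and 2 higher of 14, against 21.5% and 15.9% (median -0.11), led by Klf4 at -2.50, Klf2 at -2.37 and Jund at -1.94. The members counted as higher were Fosl2 at 1.59 in endothelial cells and 1.13 in macrophages, and Junb at 1.70 and Fos at 1.37 in mural cells. The part of this list in the results was not tested.

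**Figure D4:**
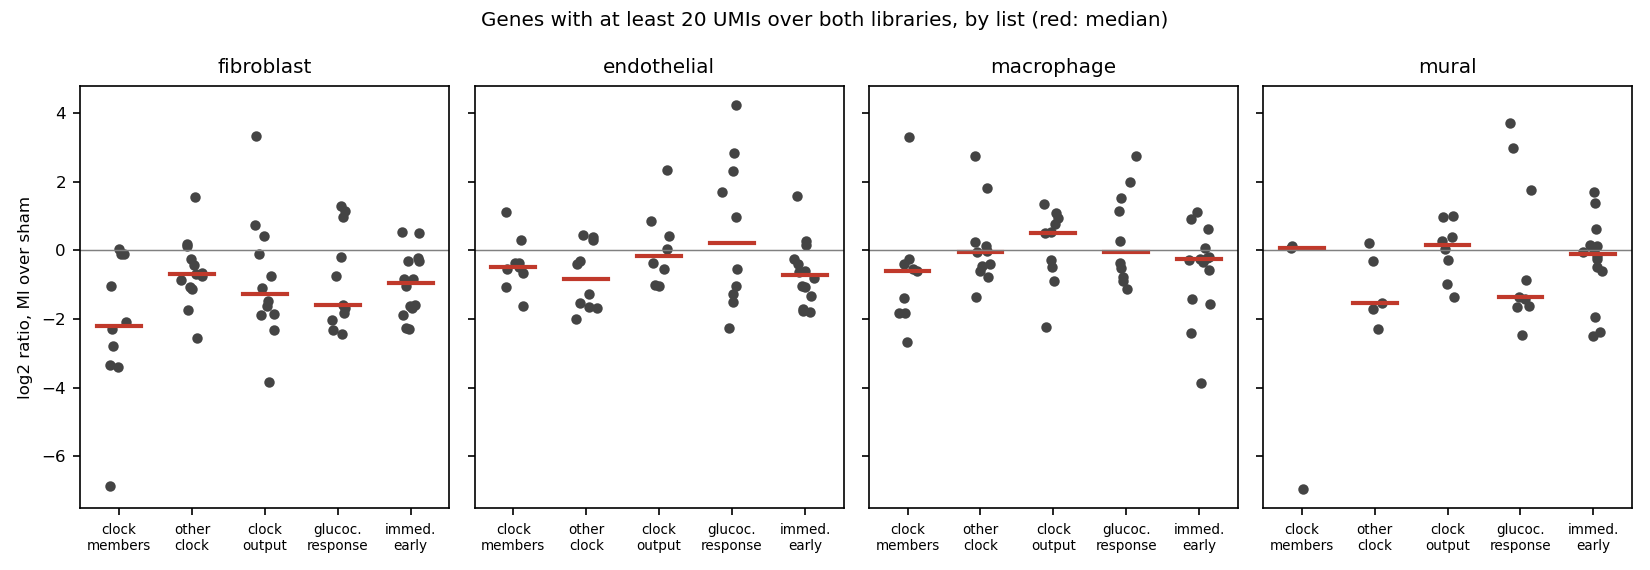
Log2 ratio of MI over sham (vertical axis) of the 10 clock genes and of 4 other gene lists (horizontal axis) in each cell type (panels), 1 library per group. Each point is a gene with at least 20 UMIs over both libraries and the red line is the median of its list. Tsc22d3 and Pdk4 are in both the clock output and the glucocorticoid response lists. In fibroblasts the clock genes have the lowest median, -2.19, and Hlf is the lowest point at -6.85, while in macrophages the medians lie between -0.61 and 0.52.

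Over the 8 pools of cell type and library, 9 of the clock genes had enough UMIs (20 in at least 4 pools) to ask which of 9345 eligible genes had the most similar levels on the scale of log2(CPM + 1). The closest to Hlf were Mterfd1, Acbd4 and Pcid2, with Pearson r of 0.96 for the first. Among the clock genes themselves Per3 and Nr1d2 were the most alike at r of 0.95, followed by Tef and Nr1d2 at 0.84, Tef and Per3 at 0.82, and Hlf and Per3 at 0.81. Per1 was the least like the rest, with r between -0.47 (Arntl) and 0.35 (Dbp). These values rest on 8 points from only 2 libraries that also differ in depth, and are descriptions without a test.

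Some of these genes share bases with neighbours in the annotation, and the sources used here do not say whether the counting used strand. Nr1d1 overlaps Thra, a thyroid hormone receptor gene, on the opposite strand by 1075 bases, and Dbp overlaps Sphk2 on the opposite strand by 737 bases. Thra stood at log2 ratios of -1.07 in fibroblasts, -1.12 in endothelial cells, -0.78 in macrophages and -1.02 (-1.95 to 0.05) in mural cells, so it was lower in MI in fibroblasts and macrophages, where Nr1d1 was level and higher. Sphk2 stood at -0.998 (-1.59 to -0.37) in fibroblasts and -0.67 (-1.17 to -0.15) in macrophages, smaller differences than those of Dbp, and at 0.92 (-0.30 to 2.06) in endothelial cells. Per3 lies within the span of Camta1 on the same strand, and Camta1 stood at -0.05 (-0.38 to 0.30) in fibroblasts, 0.57 (0.08 to 1.04) in endothelial cells, 0.79 (0.29 to 1.33) in macrophages and -0.11 (-1.56 to 1.83) in mural cells. How far reads of these pairs were mixed was not tested.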

How the data were processed

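UMI counts per gene and cell barcode were deposited by the authors in 1 table per library, made by Drop-seq with 12 PCR cycles in the library step, per the labels' protocols. The build mm10 and the tool Seurat come from the submitters' processing notes. Neither the aligner, counting program or annotation nor the cell isolation is given in the sources used here. The tables held 8555 MI barcodes with 33275336 UMIs (median 2466) and 6337 sham barcodes with 11307405 UMIs (median 1424), each barcode with at least 500 genes.

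Barcodes were kept if they had 200 genes or more and no more than 25% mitochondrial UMIs, and doublets called with scrublet in scanpy 1.11.5 were removed (127 in MI, 340 in sham), which left 8314 and 5963 cells. Of these, 1397 and 1153 fell in no gate. Gates required at least 6 detected markers of 1 type alone (5 for mural cells, which could carry fibroblast markers but at most 1 of Pdgfra, Lum, Dpt and Tcf21) and at most 2 of T/NK, B, lymphatic or mesothelial cells. Lymphocytes had at least 3 T/NK or B markers. The thresholds were set after marker counts were seen, and the clock genes and gene lists were chosen with earlier results of these data known. Clusters came from leidenalg 0.10.2 at resolution 0.8 on 2000 variable genes and 30 components.

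UMIs of gated cells were summed and given as CPM with exact Poisson intervals, and ratios with exact conditional binomial intervals, at 95%. A side with 0 UMIs was set to 3 counts over the pool. Genes with at least 20 UMIs over both libraries were counted at 2-fold. Of each of 4 lists, the up to 3 counted genes per cell type whose ratio lay farthest from 1 are named. Cry1 and Cry2 in fibroblasts, Fkbp5 there, and the immediate early genes counted as higher were named after their values were seen. The ratio step was tested on simulated data. One result of the ranking of genes by similar levels is not reported here. Alternatives covered the gate, doublets, scaling, barcodes ending in N, the mitochondrial limit and the UMI minimum. Gene coordinates come from GENCODE vM21 (GRCm38, the same build as mm10), and promoter windows those of RefSeq on GRCm38.p6. Python 3.11.15, numpy 2.4.6, scipy 1.17.1 and pandas 2.3.3 were used.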

Additional observations from a re-analysis of the deposited data

How the results depend on the processing

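No paired analysis was possible because each group was 1 library with no replicate to pair or leave out. Over 11 alternatives, 251 of 262 ratios of the clock genes stayed within their counting interval, 8 moved out of it with the same sign, 1 moved out with the other sign and 2 reversed. The 1 was endothelial Per3, from -0.54 to 0.65 with the gate on thinned cells. Bounds for genes with 0 UMIs in MI are counted among these ratios, and a bound moves with the size of the pool. Endothelial Per2, 1 of the 8, was such a bound, from -1.61 to -1.12 with the mitochondrial limit of 10%, which left 180 MI endothelial cells. Of the 251, 19 changed sign, each a ratio whose interval held 0. Both reversals were endothelial Hlf, from -1.06 to 0.80 with cell types from clusters and to 0.084 with the gate on cells thinned to 500 UMIs. The fibroblast and macrophage counts stayed within 1.5 times in every alternative run. The endothelial count of 2 lower genes was 1 with cell types from clusters, with 1 more marker required, with the thinned gate and as a mean over cells. The endothelial count of 1 higher gene was 0 with the thinned gate and with a mitochondrial limit of 10%, and 2 with no minimum of UMIs. The mural count of 1 lower gene was 3 with cell types from clusters, with no minimum and, in an alternative chosen after seeing the data, with 95 sham cells that also carried endothelial markers added. It was 0 with 1 more marker, where the ratio of Hlf stayed at -6.62 but its UMIs fell under the minimum of 20. It was also 0 with the thinned gate, which left 5 MI mural cells, too few to measure the difference. The value of -0.56 for Hlf there may be a bound set by the floor of 3 counts. The mural count of 0 higher genes was 1 without barcodes ending in N. The 2 other alternatives chosen after seeing the data, mural cells of the mural cluster alone and endothelial cells without cluster 9, kept all of their 3 and 9 ratios within the interval. Beyond counting error, the limits are 1 library per group, 1 heart against 4 pooled hearts, unknown hours of collection, deeper MI cells and few mural cells.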
